A study of Mus musculus with 6 samples.

Results

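The 10 genes described here encode elastin and proteins that build, cross-link or accompany the elastic fibre: Eln, Fbln1, Fbln2, Fbln5, Fbn1, Fbn2, Lox, Loxl1, Emilin1 and Mgp. They were chosen by name from the 31053 features of the count tables, all 10 were present in each of the 6 libraries, and none was dropped by a filter. Their levels were followed in endothelial cells (ECs), taken as cells with at least 2 unique molecular identifiers (UMIs, one per captured transcript) of Pecam1 and Cdh5 together, and in mesenchymal cells, taken as cells with at least 5 UMIs of Col1a1 and Col3a1 together and 0 of Pecam1 and Cdh5. Within the ECs, arterial cells had at least 2 UMIs of the gap junction gene Gja4 and capillary cells at least 2 UMIs of Gpihbp1, which anchors lipoprotein lipase on capillary endothelium. ECs that passed both of these minimums were left out of both states.

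Elastic fibres give arteries and the lung their recoil. Elastin is secreted as a soluble monomer, tropoelastin, which is gathered on a scaffold of fibrillin microfibrils with the help of fibulins and then cross-linked by lysyl oxidases. In the lung the fibres form in the walls of arteries and airways, and later at the tips of the alveolar septa, where myofibroblasts are known as a source of elastin, while smooth muscle cells are known as its main source in arteries.

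The libraries were made from mouse lungs that carried DsRed in exon 1 of Cxcl12, an allele that reports the gene and disrupts it. The 4 sorted libraries came from Cxcl12DsRed/+ lungs of embryos at E13.5, at E15.5 and E18.5, and of pups at P8. They held DsRed+ cells sorted without CD45 and EpCAM. The study gives the sequenced sort as CD31+ and also describes a CD31- fraction, enriched in mesenchymal cells. Whether that fraction entered these libraries is not stated. The other 2 libraries were made from whole lungs at E18.5, labelled Cxcl12DsRed/+ (control) and Cxcl12DsRed/DsRed (null). The null allele was carried by all cells of the embryo, more than 1 lung went into each library as the study describes them, and each group was 1 library, so that no value here has a replicate and no test between groups was possible. All groups carried at least 1 DsRed allele, and no wild-type lung was among them.

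After filtering, 7448 to 12726 cells were kept in a library, out of 63746333 to 117522172 UMIs in the tables as deposited. The libraries held 210, 9453, 9119 and 8259 ECs from E13.5 to P8, and 1923 and 3019 in the whole lungs labelled control and null. The mesenchymal cells numbered 11122, 1798, 232, 59, 3818 and 4299 in the same order, so the P8 value rests on few cells. Kdr, Tie1, Egfl7, Cldn5, Emcn, Esam and Ramp2, which did not define the classes, summed to 4867 to 11627 CPM in ECs, that is UMIs scaled to a total of 1000000 for the class, and to 82.6 to 237 CPM in mesenchymal cells. Col1a2, Pdgfra, Pdgfrb, Dcn, Tcf21 and Lum summed to 2270.4 to 6683 CPM in mesenchymal cells and to 14.5 to 433 CPM in ECs, with Lum at 0 in both classes at P8. Of the ECs, 37, 434, 77, 32, 177 and 293 in the order above also held at least 5 UMIs of Col1a1 and Col3a1, and some of the values below are also given without them. Leaving them out moved 109 of 209 member ratios outside the counting interval of the reported value. In the whole lungs Cxcl12 went against the labels, which is described with that comparison, and 140 cell barcodes were shared between these 2 libraries against 20 to 54 between any other pair.

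Promoters are shown for 2 fibulins that differed in the arterial comparison described below. Fbln5 had the widest ratio of arterial over capillary cells as these states were defined. Fbln1 stayed under 2-fold in the 2 libraries in which it reached 50 CPM, and passed 2-fold at E18.5 and P8, where it was under 50 CPM. RefSeq (GRCm38.p6) gives 2 starts for each of them, and each sequence holds the 250 bases before the start whose window lies outside all annotated exons, 5′ to 3′ on the strand of the gene, at chr12:101819120-101819369 on the minus strand for Fbln5 and at chr15:85205699-85205948 on the plus strand for Fbln1. No transcript of the annotation used here holds the first 20 bases after the Fbln5 start, and 1 transcript holds those after the Fbln1 start. Capitals mark matches, on either strand, to the GC box GGGCGG (reverse complement CCGCCC) or to the CAGA box CAGAC (reverse complement GTCTG), a core of SMAD binding, and no 2 matches overlapped.
Fbln5: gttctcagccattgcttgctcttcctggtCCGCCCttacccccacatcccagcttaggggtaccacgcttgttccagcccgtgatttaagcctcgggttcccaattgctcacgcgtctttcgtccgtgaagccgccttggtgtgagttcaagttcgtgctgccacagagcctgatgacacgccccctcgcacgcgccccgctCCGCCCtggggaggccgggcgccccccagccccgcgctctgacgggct
Fbln1: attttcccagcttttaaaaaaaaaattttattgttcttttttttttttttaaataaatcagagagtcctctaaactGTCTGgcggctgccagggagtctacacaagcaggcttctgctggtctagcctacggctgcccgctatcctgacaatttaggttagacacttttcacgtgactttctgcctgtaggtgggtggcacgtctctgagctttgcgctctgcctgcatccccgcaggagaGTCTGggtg
The Fbln5 window held 2 GC boxes and 0 CAGA boxes, and the Fbln1 window 0 and 2. The windows of the other starts, which overlap exons and are not shown, held 0 GC boxes and 2 CAGA boxes for Fbln5 and 1 and 2 for Fbln1, so these matches did not set the genes apart. Neither printed window held TATAAA or the ETS core CCGGAA on either strand. Among 32851 RefSeq promoters of the same length, 32.7% held a GC box, 42.2% a CAGA box, 12.4% a TATA box and 12.0% an ETS core, so that GC and CAGA boxes are common. G and C made up 65.2% of the printed Fbln5 window and 46.4% of that of Fbln1, and 49.6% and 62.4% of the windows not shown, against a median of 52.4% over all promoters. A match describes the letters in the window and does not show that a factor binds there.

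The first question was which class of cells carried the transcripts. Levels are sums of UMIs over all cells of a class, in CPM, and parentheses after a level or a log2 ratio give its exact 95% interval, which covers counting error only. For levels the interval is printed where it reached more than 10% from the value. At E15.5 all 10 genes were at least 2-fold higher in mesenchymal cells than in ECs of the same library, while at E13.5 this held for 4 genes and 2 were at least 2-fold lower. A gene was counted as higher or lower when it differed at least 2-fold and reached 50 CPM in one of the classes. Among all genes that reached 50 CPM, 8.33% were higher and 11.5% lower at E13.5, and 12.9% higher and 12.9% lower at E15.5. At E18.5, 7 of the 10 were higher and 0 lower (background 13.5% and 18%), and at P8, 7 were higher and 1 lower of the 9 that reached 50 CPM (background 14.8% and 19.3%). Of the whole lungs, the library labelled control had 7 higher and 1 lower (background 14% and 15.8%), and the library labelled null had 6 higher and 1 lower (background 13.6% and 15.8%). The higher members that reached 50 CPM in ECs too were 2, 7, 3 and 3 from E13.5 to P8 and 3 in each whole lung, while the others passed through the mesenchymal level alone, so the counts are a description. The median log2 ratio of the 10 members was 0.71 at E13.5 and 2.21, 3.05 and 3.27 at the later sorted stages. At P8 it was 3.12 over the 9 that reached 50 CPM. The medians over all genes that reached 50 CPM were -0.17 to -0.021 in the 6 libraries.

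**Figure D1:**
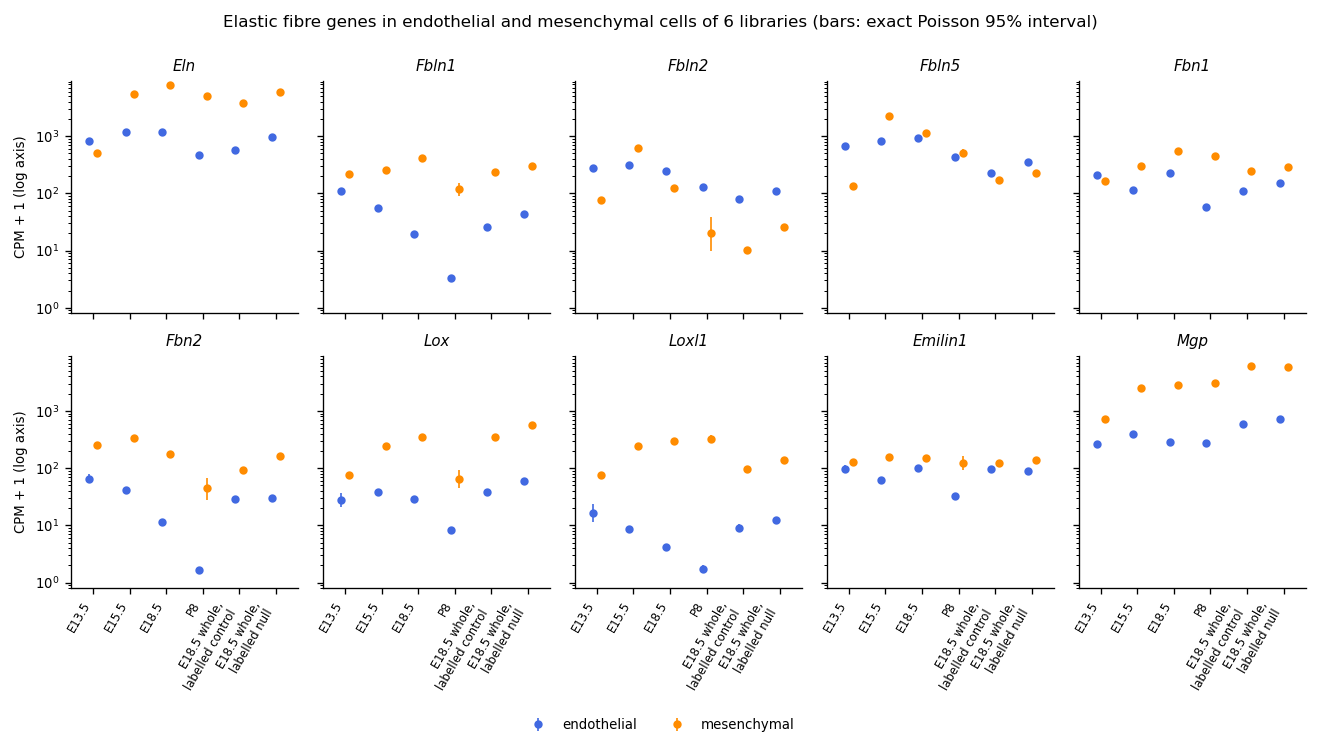
Level of each gene (CPM + 1, log axis) in endothelial (blue) and mesenchymal (orange) cells of the 6 libraries, with 1 point per library and class and bars for the exact Poisson 95% interval. Eln is at 496 CPM in mesenchymal and 814 CPM in endothelial cells at E13.5 and at 5444 and 1169 CPM at E15.5. With all ECs counted, also those that held Col1a1 or Col3a1, Loxl1 separates further at each later stage of the sorted libraries.

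Eln, the gene of tropoelastin itself (ENSMUSG00000029675, chr5:134702593-134747323, minus strand), stood at 496, 5444, 7939 and 4929.6 CPM in mesenchymal cells from E13.5 to P8, and at 3728 and 5914 CPM in the whole lungs labelled control and null. In ECs it stood at 814, 1169, 1169.7, 463, 582 and 973 CPM in the same order. E13.5 was the only one of the 6 libraries in which ECs held more Eln than mesenchymal cells. The log2 ratio of mesenchymal over endothelial cells was -0.71 (-0.79 to -0.64) at E13.5, 2.22 (2.21 to 2.23) at E15.5 and 3.41 (3.35 to 3.47) at P8. Without the ECs that held at least 5 UMIs of Col1a1 and Col3a1 the E13.5 ratio was -0.72. Ranked over the 12 levels, the endothelial values of E18.5 and E15.5 were the only neighbours whose intervals overlapped.

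Of the fibulins, which link tropoelastin to microfibrils and basement membranes, Fbln1 was higher in mesenchymal cells in each library, while Fbln2 and Fbln5 changed sides between libraries. Fbln5 (ENSMUSG00000021186, chr12:101746565-101819055, minus strand), which binds tropoelastin and lysyl oxidase-like 1 and is needed for elastic fibres in mice, stood at 669, 804, 909 and 430.4 CPM in ECs from E13.5 to P8. In mesenchymal cells it stood at 133, 2228, 1110.3 and 513 (449 to 582) CPM. Its level over all ECs thus kept within 2-fold over E13.5 to E18.5, while the mesenchymal level crossed it upward at E15.5. In arterial cells alone Fbln5 stood at 739, 1273 and 1972 CPM over these stages, a rise of more than 2-fold. With the ECs past both the arterial and the capillary minimum counted as arterial, it stood at 968 and 1256 CPM at E15.5 and E18.5. Arterial cells made up 190 of 210 ECs at E13.5 and 3815 of 9119 at E18.5, so the EC class was not a fixed mix. The log2 ratio of mesenchymal over endothelial cells was -2.33 (-2.42 to -2.25) at E13.5, 1.47 (1.45 to 1.49) at E15.5 and 0.29 (0.23 to 0.35) at E18.5. In the whole lungs it was -0.44 (-0.50 to -0.38) in the library labelled control and -0.60 (-0.64 to -0.57) in the library labelled null, both under 2-fold.

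Fbln2 (ENSMUSG00000064080, chr6:91212455-91272540, plus strand), a fibulin of vessel walls and basement membranes, was the one member that was at least 2-fold higher in ECs in 4 of the 6 libraries. It stood at 280.2, 310.1, 245 and 126 CPM in ECs and at 76.1, 631, 125 (111 to 141) and 19.5 (8.90 to 37.0) CPM in mesenchymal cells from E13.5 to P8. The whole lungs held 79.5 and 109.6 CPM in ECs and 9.37 (8.34 to 10.5) and 24.3 CPM in mesenchymal cells of the libraries labelled control and null. E15.5 was the exception, with a log2 ratio of mesenchymal over endothelial cells of 1.02 (0.99 to 1.06), against -1.88 (-2.01 to -1.75) at E13.5 and -2.69 (-3.82 to -1.77) at P8. Fbln1 (ENSMUSG00000006369, chr15:85205949-85286535, plus strand), which binds fibronectin and elastin, went from 109 (94.1 to 125) CPM in ECs at E13.5 to 55.2, 18.6 and 2.25 (1.89 to 2.66) CPM from E15.5 to P8. The mesenchymal cells held 216, 254, 410.2 and 117 (87.7 to 152) CPM, and the log2 ratio went from 0.99 (0.79 to 1.20) at E13.5 to 5.70 (5.22 to 6.16) at P8.

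The fibrillins form the microfibril on which elastin is laid down, and Fbn2 is known as the more embryonic of the pair. Fbn1 (ENSMUSG00000027204, chr2:125300594-125507993, minus strand) stood at 206 (186 to 229), 113, 224 and 56.8 CPM in ECs and at 160.0, 301, 557 and 448 (389 to 513) CPM in mesenchymal cells. The classes differed by less than 2-fold at E13.5, with a log2 ratio of -0.37 (-0.52 to -0.22), and the ratio was 2.98 (2.77 to 3.18) at P8. Fbn1 in the whole lungs labelled control and null stood at 111 and 148 CPM in ECs and at 249 and 284 CPM in mesenchymal cells. Fbn2 (ENSMUSG00000024598) stood at 64.9 (53.7 to 77.8), 40.8, 10.5 and 0.648 (0.463 to 0.882) CPM in ECs and at 250.3, 335, 177 (159 to 196) and 43.3 (26.4 to 66.8) CPM in mesenchymal cells. Fbn2 was the member with the lowest endothelial level at P8, 40 UMIs over 8259 cells, and both classes held less of it at E18.5 and P8 than at E15.5. The whole lungs held 28.5 and 28.8 CPM of Fbn2 in ECs and 91.6 and 165 CPM in mesenchymal cells of the libraries labelled control and null.

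Lox and Loxl1 encode the enzymes that cross-link elastin, and Lox also cross-links collagen. Lox (ENSMUSG00000024529) stood at 27.2 (20.1 to 35.9), 37.6, 28.1 and 7.45 CPM in ECs and at 73.8, 244, 352 and 64.9 (43.8 to 92.6) CPM in mesenchymal cells. It was at least 2-fold higher in mesenchymal cells in all 6 libraries, with log2 ratios from 1.44 at E13.5 to 3.65 at E18.5. Lox in the whole lungs labelled control and null stood at 36.9 and 59.0 CPM in ECs and at 356 and 569 CPM in mesenchymal cells, with the same log2 ratio of 3.27 in both. Loxl1 (ENSMUSG00000032334, chr9:58287738-58313186, minus strand) had the widest separation of the 10 genes in each sorted library after E13.5 and stood at 15.5 (10.3 to 22.5), 7.60, 3.13 (2.70 to 3.61) and 0.761 (0.559 to 1.01) CPM in ECs. The mesenchymal cells held 75.0, 247, 301 and 320.1 (271 to 376) CPM. The log2 ratio was 2.27 (1.74 to 2.86), 5.02 (4.91 to 5.14), 6.59 (6.35 to 6.83) and 8.72 (8.23 to 9.22) from E13.5 to P8. In the whole lungs it was 3.54 (3.31 to 3.78) in the library labelled control and 3.65 (3.50 to 3.80) in the library labelled null. Without the ECs that held at least 5 UMIs of Col1a1 and Col3a1 it was 4.55 at E13.5 and 8.27 at E15.5. Much of the Loxl1 counted in ECs was thus in cells that also held Col1a1 or Col3a1.

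Emilin1 (ENSMUSG00000029163, chr5:30913402-30921277, plus strand), a glycoprotein at the interface of elastin and microfibrils, was higher in mesenchymal cells in each library, by log2 ratios of 0.36 to 1.94. However, the E13.5 ratio became -0.0093 when each cell was thinned to 2000 UMIs and the classes were taken again on the thinned counts. Its levels were 95.4 (81.7 to 111), 61.9, 100.2 and 32.1 CPM in ECs and 128, 153, 149.7 (134 to 167) and 123 (93.4 to 159.7) CPM in mesenchymal cells, and of the 11 neighbours in the order of its 12 levels 7 had overlapping intervals. The 2-fold minimum was reached at E15.5, where the log2 ratio was 1.30 (1.23 to 1.37), and at P8. Mgp (ENSMUSG00000030218, chr6:136872435-136875823, minus strand), a vitamin K-dependent inhibitor of calcification in arteries and cartilage, stood at 264, 398, 285 and 277 CPM in ECs and at 722, 2470.2, 2862 and 3104 CPM in mesenchymal cells. It was at least 2-fold higher in mesenchymal cells in all 6 libraries, with log2 ratios of 1.45 to 3.49. Mgp was highest in the whole lungs, at 6168 and 5839 CPM in mesenchymal cells of the libraries labelled control and null.

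The second question was whether the transcripts in ECs belonged to arterial or to capillary cells. Arterial and capillary cells numbered 5658 and 1125 at E15.5, 3815 and 2061 at E18.5, 1588 and 1304 at P8, 224 and 1151 in the library labelled control, and 643 and 1287 in the library labelled null. At E13.5 there were 190 arterial and 2 capillary cells, too few for a comparison. Cells past both minimums, which numbered 4775 of the 8259 ECs at P8, belong to neither group. Gja5, Cxcl12, Hey1, Sox17, Bmx, Efnb2 and Dll4 summed in these 5 libraries to 2089 to 4909 CPM in arterial and 354 to 1463 CPM in capillary cells. Car4, Aplnr, Plvap, Kit and Cd93 separated the states less, at 676 to 1616 CPM in arterial and 908 to 1928 CPM in capillary cells.

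Eln, Fbln2, Fbln5, Fbn1 and Mgp were at least 2-fold higher in arterial than in capillary cells in all 5 libraries. Lox was so in 3 libraries, and no member was at least 2-fold lower in any. Of the 10 members, 6 were higher at E15.5 (background 7.49%), 6 at E18.5 (7.02%) and 5 at P8 (5.16%). In the whole lungs 6 were higher in the library labelled control (6.63%) and 5 in the library labelled null (6.68%). Only 2, 1, 1, 2 and 2 of these higher members reached 50 CPM in capillary cells too. The rest passed through their arterial level alone and had to differ to be counted, so these counts describe the members and give no support for a difference. The shares of all genes that were lower were 4.25%, 6.99%, 5.43%, 5.92% and 6.82% in the same order. The median log2 ratio of the 10 members was 3.33, 4.13, 3.36, 1.44 and 1.40, and over all genes that reached the minimum it was -0.051 to 0.035. When the ECs past both minimums were counted in both states, 23 of the 28 calls remained. Those lost were Lox at E15.5 and E18.5, where its arterial level fell under 50 CPM, Lox in the library labelled control, at a log2 ratio of 0.69, and Mgp in the libraries labelled control and null, at 0.92 and 0.93.

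**Figure D2:**
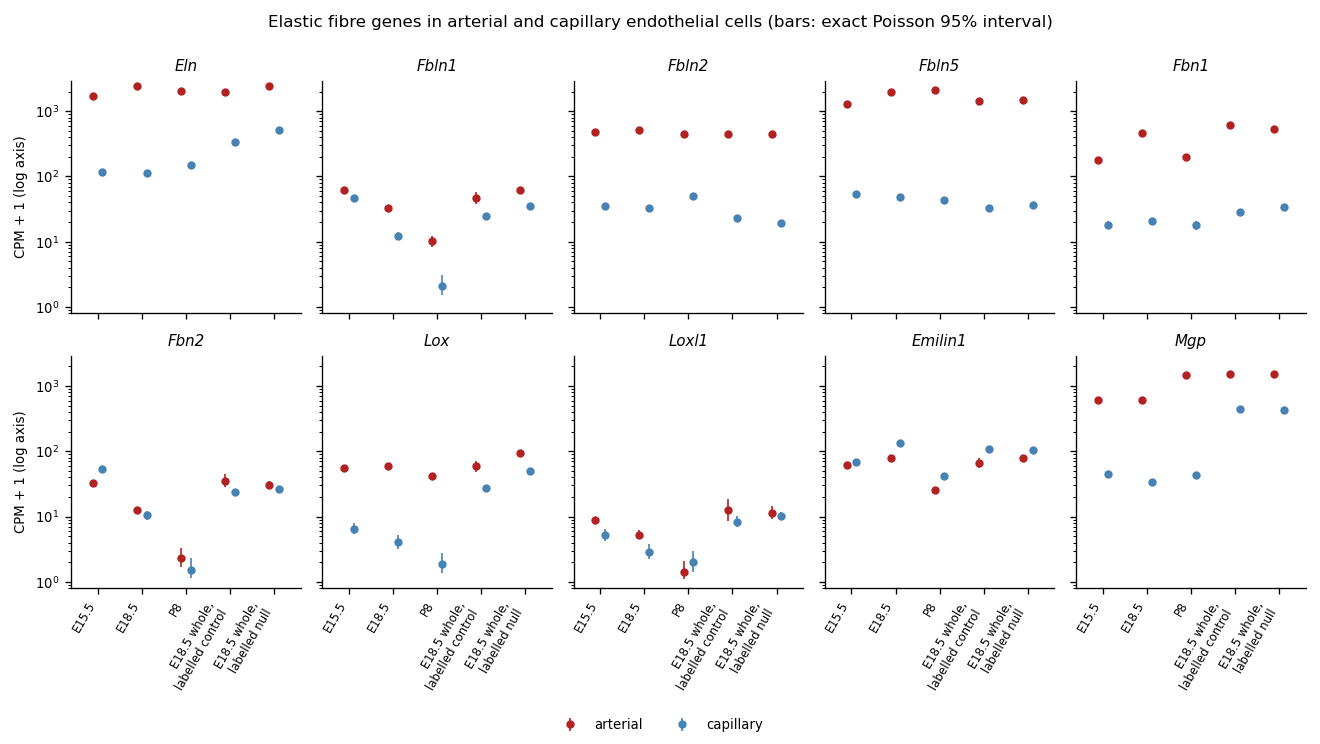
Level of each gene (CPM + 1, log axis) in arterial (red) and capillary (blue) endothelial cells of the 5 libraries with at least 50 cells of both states, with bars for the exact Poisson 95% interval. The states stand apart for Eln, Fbln2, Fbln5, Fbn1 and Mgp in each library, while for Emilin1 the capillary point is the higher one, at 135 against 76.7 CPM at E18.5.

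Fbln5 had the widest gap of the 10 genes in all 5 libraries when the ECs past both minimums were left out. Its arterial levels were 1273, 1972 and 2078 CPM from E15.5 to P8, and 1433 and 1496 CPM in the whole lungs labelled control and null. Its capillary levels were 52.9, 47.8, 43.1 (38.7 to 47.9), 32.3 (29.1 to 35.7) and 35.3 CPM in the same order. The log2 ratios of arterial over capillary cells were 4.59 (4.48 to 4.70), 5.37 (5.25 to 5.48), 5.59 (5.44 to 5.75), 5.47 (5.32 to 5.63) and 5.41 (5.28 to 5.54), or 24.1 to 48.2-fold. With the ECs past both minimums in both states they were 2.87, 2.79, 1.97, 3.32 and 2.95, and those of Eln were 2.61, 2.93, 1.71, 1.43 and 1.22. Fbln5 was then no longer the widest at E18.5, where Eln and Mgp (2.88) lay above it, or at P8, where Mgp stood at 2.86. The arterial levels of the 2 whole lungs had overlapping intervals, and all capillary levels lay below all arterial ones.

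Fbln2 stood at 474, 519, 448, 445 and 451 CPM in arterial and at 34.1, 31.8, 49.6 (44.8 to 54.7), 22.1 (19.5 to 24.9) and 18.2 (16.1 to 20.5) CPM in capillary cells, in the order E15.5, E18.5, P8, labelled control and labelled null. The log2 ratio lay between 3.17 at P8 and 4.63 in the library labelled null, and with the ECs past both minimums in both states it was 2.57, 2.62, 1.06, 2.78 and 2.75 in the same order. Fbn1, the microfibril gene that differed little between ECs and mesenchymal cells at E13.5, stood at 176, 468, 195, 622 and 530.3 CPM in arterial and at 17.1, 19.7 (17.4 to 22.2), 16.7 (14.0 to 19.8), 27.6 (24.7 to 30.8) and 33.3 CPM in capillary cells. Its log2 ratio was lowest at E15.5, at 3.36 (3.17 to 3.55), and highest at E18.5, at 4.57 (4.40 to 4.75). This order did not hold with the ECs past both minimums in both states, where the ratio was 2.13, 2.28, 1.01, 2.73 and 2.08, lowest at P8. The other fibrillin, Fbn2, was under 50 CPM in both states in 4 of the 5 libraries compared, the exception being E15.5, where it stood at 31.8 CPM in arterial and 51.7 CPM in capillary cells.

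Eln stood at 1729.7, 2468 and 2062 CPM in arterial and at 114, 112 and 149 CPM in capillary cells of the sorted libraries from E15.5 to P8. The whole lungs held 1958 and 2466 CPM in arterial and 339.6 and 515 CPM in capillary cells of the libraries labelled control and null. The log2 ratio was 3.92 (3.85 to 3.99), 4.46 (4.39 to 4.54) and 3.79 (3.70 to 3.87) in the sorted libraries and 2.53 (2.46 to 2.59) and 2.26 (2.22 to 2.30) in the whole lungs. The arterial levels lay within 2-fold of each other over these 5 libraries, while the capillary levels were highest in the whole lungs. With the ECs past both minimums counted as arterial the levels were 1324, 1535, 496, 1021 and 1283 CPM, lowest at P8 and no longer within 2-fold. Mgp was likewise at 44.0, 32.6 and 41.7 (37.4 to 46.4) CPM in capillary cells of the sorted libraries and at 450.2 and 424 CPM in those of the whole lungs labelled control and null. Its arterial levels were 601, 609.7, 1474, 1524 and 1533 CPM.

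Immune cells of the whole lungs, taken as cells with at least 2 UMIs of Ptprc and no Pecam1, Cdh5 or Epcam, give the level in cells that are not known as a source of elastin. They held 542 and 765 CPM of Eln and 588 and 465 CPM of Mgp in the libraries labelled control and null, more than the capillary cells in each case. After thinning each cell to 2000 UMIs, Eln was found in 17.6% (15.4% to 19.9%) of capillary and 18.1% (14.9% to 21.7%) of immune cells in the library labelled control, and in 23.6% (21.3% to 26.1%) and 26.1% (22.4% to 30.0%) in the library labelled null. The median depth was 8263 and 15573 UMIs per cell in the former and 9112 and 15829 in the latter. Whole-lung capillary Eln and Mgp thus did not exceed the level in immune cells and are not read as expression by capillary cells. The transcripts were unevenly spread, since 82.5% and 76.4% of thinned capillary cells had no Eln UMI in the libraries labelled control and null, and the 10% of cells with the most Eln held 84.5% and 81.1% of its UMIs. Fbln5 in the same immune cells was at 15.9 (13.4 to 18.8) and 19.4 (16.7 to 22.5) CPM, and Fbln2 at 0.560 (0.182 to 1.31) and 1.83 (1.06 to 2.92) CPM, below both EC states.

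Lox stood at 53.8, 58.7 and 40.8 (36.8 to 45.1) CPM in arterial cells of the sorted libraries from E15.5 to P8 and at 5.49 (4.31 to 6.90), 3.05 (2.20 to 4.13) and 0.874 (0.351 to 1.80) CPM in capillary cells. The log2 ratio was 3.29 (2.96 to 3.65) at E15.5 and 4.26 (3.82 to 4.74) at E18.5. At P8 both states were under 50 CPM, with 377 UMIs in arterial and 7 in capillary cells. The whole-lung ratio was 1.13 (0.81 to 1.43) in the library labelled control and 0.94 (0.78 to 1.10) in the library labelled null, where immune cells held 42.0 (37.9 to 46.5) and 71.0 CPM of Lox. With the SoupX-adjusted values the ratio in the library labelled control was -1.42, so its direction there depends on how free RNA was treated. Loxl1 did not reach 50 CPM in either state of any library, and was at most 11.8 (7.64 to 17.4) CPM in arterial and 9.21 (7.73 to 10.9) CPM in capillary cells of these 5 libraries, both in whole lungs, whose immune cells held 10.6 and 13.1 CPM.

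Emilin1 was the one member whose ratio was below 0 in all 5 libraries, without reaching 2-fold in any, and at P8 both states were under 50 CPM. It stood at 59.6, 76.7, 24.4 (21.3 to 27.8), 65.2 (54.8 to 77.0) and 76.7 CPM in arterial and at 67.3, 135, 41.3 (37.0 to 46.0), 108 and 104 CPM in capillary cells. The log2 ratio lay between -0.81 (-0.90 to -0.72) at E18.5 and -0.18 (-0.28 to -0.067) at E15.5, and between -0.55 in the library labelled control and -0.045 at E15.5 with the ECs past both minimums in both states. Fbln1 stood at 60.3 CPM in arterial and 46.5 CPM in capillary cells at E15.5, a log2 ratio of 0.37 (0.25 to 0.50). In the library labelled null the ratio was 0.79 (0.59 to 0.98), and in the other 3 libraries Fbln1 was under 50 CPM in both states.

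Mesenchymal RNA in the ECs was measured beside these ratios. The mesenchymal list (Col1a2, Pdgfra, Pdgfrb, Dcn, Tcf21 and Lum) summed to 193, 90.4 and 16.6 CPM in arterial and 136, 74.2 and 22.1 CPM in capillary cells of the sorted libraries from E15.5 to P8. The smooth muscle list (Acta2, Tagln, Myh11 and Cnn1) summed to 239, 107 and 50.3 CPM in arterial and 97.8, 15.8 and 23.5 CPM in capillary cells, and so moved with the arterial state. When ECs with at least 5 UMIs of Col1a1 and Col3a1 were left out, the log2 ratio of Eln was 5.28, 4.76 and 4.02 in the sorted libraries and 4.61 and 4.09 in the whole lungs labelled control and null. These ratios were larger than with those cells kept. The same held for Mgp, at 5.49, 5.21, 6.52, 4.13 and 4.19. The ratio of Lox in the whole lungs passed 2-fold in both libraries without those cells, at 3.22 and 3.17. Its levels without them are not given here, so whether it reached 50 CPM is not shown. Summed over the libraries compared, 27 member calls were higher in arterial cells without those cells, against 28 with them. With the SoupX-adjusted values the whole-lung ratios of Eln were 3.34 and 2.93.

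Arterial cells were then divided by the markers that the study used for its proximal and distal arterial populations. Proximal-marked cells had at least 1 UMI of Gkn3 and none of Alox12, and distal-marked cells the reverse, which gave 832, 286 and 167 proximal-marked and 1276, 1113 and 100 distal-marked cells from E15.5 to P8. In the other libraries fewer than 50 cells carried the proximal mark. Of the 10 members, 7 were at least 2-fold higher in proximal-marked cells at E15.5 and again at E18.5, and 5 were so at P8, with 0 lower. In distal-marked cells 4, 5 and 4 of them reached 50 CPM too, and the others passed through the proximal-marked level alone. The background was 7.56% higher and 3.91% lower at E15.5, 7.39% and 6.9% at E18.5, and 5.33% and 5.01% at P8. Several of these genes had been seen high in proximal arterial cells of the same libraries before, so the direction is not independent evidence, and what follows concerns its size beside mesenchymal cells and the members that stood outside it. The median log2 ratio was 2.56 and 1.97 over the 10 members at E15.5 and E18.5 and 2.14 over the 9 with a ratio at P8, against 0.041, -0.077 and -0.11 over all genes that reached 50 CPM.

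Eln reached 8083, 15978 and 8080.0 CPM in proximal-marked cells from E15.5 to P8, against 358, 376 and 601 (538 to 669) CPM in distal-marked cells. The mesenchymal cells of the same libraries held 5444, 7939 and 4929.6 CPM, so that proximal-marked ECs held more Eln in CPM than the mesenchymal class as a whole at all 3 stages. At E15.5 the mesenchymal cells with Acta2 and without Pdgfra, described below, held 8459 CPM, above the proximal-marked level. Fbln2 was likewise higher in proximal-marked cells, at 2006, 2481 and 1011 CPM, than in mesenchymal cells, at 631, 125 (111 to 141) and 19.5 (8.90 to 37.0) CPM. Fbln5 followed, at 4826, 6482 and 3620.1 CPM in proximal-marked cells, and its log2 ratio of proximal- over distal-marked cells was 3.44 (3.40 to 3.48), 2.66 (2.62 to 2.70) and 1.30 (1.20 to 1.41).

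Mgp was at 2603, 2959.8 and 5735 CPM in proximal-marked and at 151, 129 and 504 (447 to 568) CPM in distal-marked cells. Lox, the cross-linking enzyme that was scarce in ECs as a whole, reached 241, 315 and 177 (156 to 200.1) CPM in proximal-marked cells and 12.1 (10.3 to 14.2), 11.9 (9.41 to 14.7) and 20.0 (10.0 to 35.8) CPM in distal-marked cells. At E15.5 its interval in proximal-marked cells overlapped the 244 CPM of mesenchymal cells. The second enzyme did not follow: Loxl1 was at 11.8 (9.39 to 14.6), 4.97 (2.57 to 8.68) and 0.684 (0.0173 to 3.81) CPM in proximal-marked cells, where mesenchymal cells held 247, 301 and 320.1 (271 to 376) CPM. Its log2 ratio of proximal- over distal-marked cells was 0.28 (-0.15 to 0.69) at E15.5, an interval that includes no difference.

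Fbn1 differed by less than 2-fold between the marks, at 278, 552 and 245 (220.1 to 272) CPM in proximal-marked and 154, 368 and 222 (185 to 265) CPM in distal-marked cells. Its log2 ratio was 0.86 (0.77 to 0.95), 0.59 (0.49 to 0.68) and 0.14 (-0.16 to 0.45) from E15.5 to P8. The scaffold gene that was higher in arterial cells in all 5 libraries compared was therefore spread over both marks, while its partners Eln and Fbln2 were not. Emilin1, whose arterial levels lay below its capillary levels, was higher in proximal- than in distal-marked cells, with log2 ratios of 1.19 (1.03 to 1.35) at E15.5 and 1.10 (0.89 to 1.31) at E18.5. Fbln1 had log2 ratios of 1.67 (1.52 to 1.83) and 1.28 (0.96 to 1.60) at these stages, and Fbn2 was under 50 CPM under both marks.

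**Figure D3:**
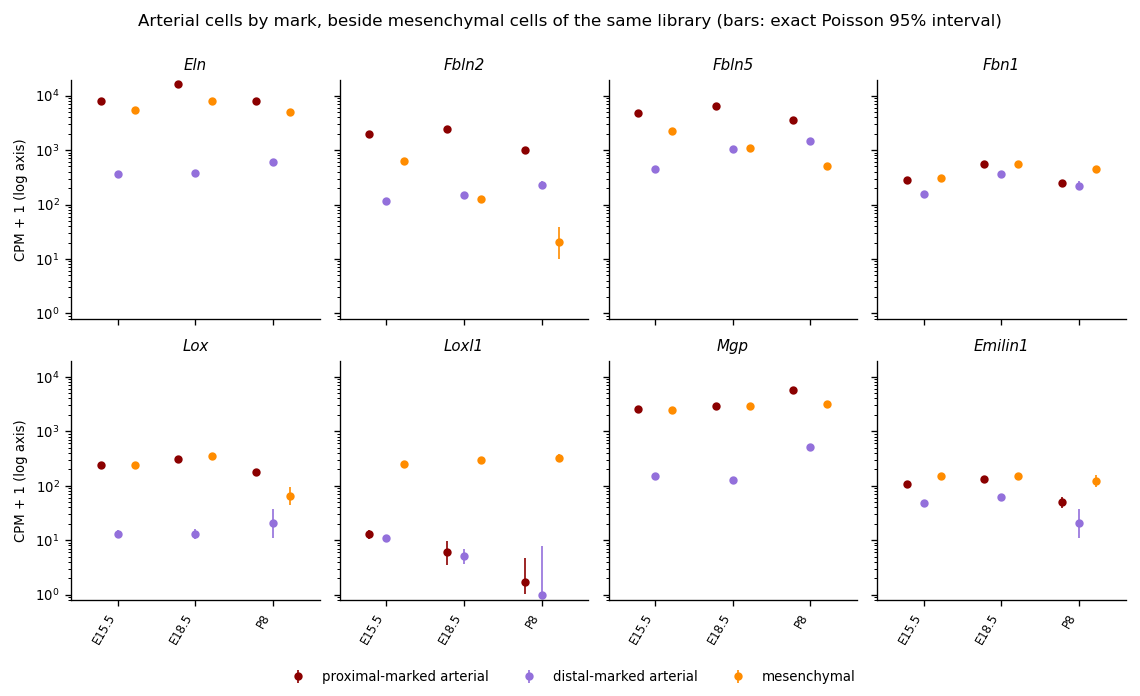
Level of 8 genes (CPM + 1, log axis) in proximal-marked (dark red) and distal-marked (purple) arterial cells and in mesenchymal cells (orange) of the E15.5, E18.5 and P8 sorted libraries, with bars for the exact Poisson 95% interval. For Eln and Fbln2 the proximal-marked point is the highest of the 3 in each library, for Loxl1 the mesenchymal point stands alone at 247 to 320.1 (271 to 376) CPM, and for Fbn1 the marks lie close together.

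Markers of other cells were measured under both marks as well. The smooth muscle list summed to 437, 142 and 84.1 CPM in proximal-marked and 263, 84.3 and 27.3 CPM in distal-marked cells from E15.5 to P8, against 5895, 7886 and 8471 CPM in mesenchymal cells. Acta2 alone was at 58.4 (49.2 to 68.9) and 47.8 (42.8 to 53.3) CPM under the proximal and distal mark at E18.5, where mesenchymal cells held 4372 CPM. The part of smooth muscle RNA in the proximal-marked values was not tested. The marks were not compared without the ECs that held at least 5 UMIs of Col1a1 and Col3a1. At P8 the epithelial list (Epcam, Cdh1, Sftpc and Nkx2-1) summed to 7417 CPM in proximal-marked and 3.64 CPM in distal-marked cells, and its part in the P8 values was not tested.

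Within the arterial state the transcripts were unevenly spread over cells. After thinning to 2000 UMIs, the arterial cells without an Eln UMI made up 67.7%, 56.9% and 41.0% from E15.5 to P8. The 10% of arterial cells with the most Eln held 74.3%, 82.3% and 69.3% of all its UMIs at these stages, and the highest cell held 137, 179 and 88. Fbln5 was spread more evenly, with 51.6%, 41.3% and 32.1% of its UMIs in the top 10% of cells. In mesenchymal cells the top 10% held 30.8% of Eln UMIs at E15.5 and 29.1% at E18.5. Arterial cells with Eln tended to be those with Mgp, with Spearman coefficients of 0.806 at E15.5 (5651 cells), 0.648 at E18.5 (3769 cells) and 0.598 at P8 (1551 cells). Mgp had the highest coefficient of the members at these stages. Fbln5 followed at 0.725, 0.563 and 0.555, while Emilin1 was at 0.145, 0.099 and 0.076 and Fbn2 at 0.028, -0.045 and -0.047. These coefficients are across cells of single libraries, which share their depth and free RNA, and describe them only.

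In mesenchymal cells the members were also placed by Acta2, the actin of contractile cells, and Pdgfra, a receptor of fibroblasts and alveolar myofibroblasts. Cells with at least 5 UMIs of Acta2 were set apart from those with at most 1, and cells with at least 2 UMIs of Pdgfra from those with 0. At E15.5 Eln was highest in cells with Acta2 and without Pdgfra, at 8459 CPM, against 3587 CPM in cells with both, 627 CPM in cells with Pdgfra and without Acta2, and 1001 CPM in cells with neither. Fbln5 had the same order over the 4 states at E15.5, at 3269, 1754, 477 and 736 CPM. Fbln2 did not follow it, at 660.1, 542 (489 to 601), 507 and 615 CPM in the same order. At E13.5 Eln was again highest in Acta2 cells without Pdgfra, at 973 CPM, and lowest in Pdgfra cells without Acta2, at 249.9 CPM.

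In the whole E18.5 lungs the order was different. Eln was highest in Pdgfra cells without Acta2, at 5026 CPM in the library labelled control and 8143 CPM in the library labelled null, against 2967 and 4272 CPM in Acta2 cells without Pdgfra. Mgp had the same highest state, at 7661 and 8304 CPM, and so did Lox, at 502 and 924 CPM. Fbln5 was instead highest in cells with neither marker, at 324 and 354 CPM, and lowest in cells with both, at 49.1 and 124 CPM. Loxl1 was lowest in cells with both markers as well, at 45.8 and 94.8 CPM. The sorted library at E18.5 held 87 Acta2 cells without Pdgfra, with Eln at 11728 CPM and Fbln5 at 1825 CPM, against 144 (130.0 to 160.0) and 276 CPM of Fbln5 in that state of the whole lungs. Its other 3 states had 27, 32 and 27 cells, under the minimum of 50, so the order over the states could not be given in the sorted library of that age.

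**Figure D4:**
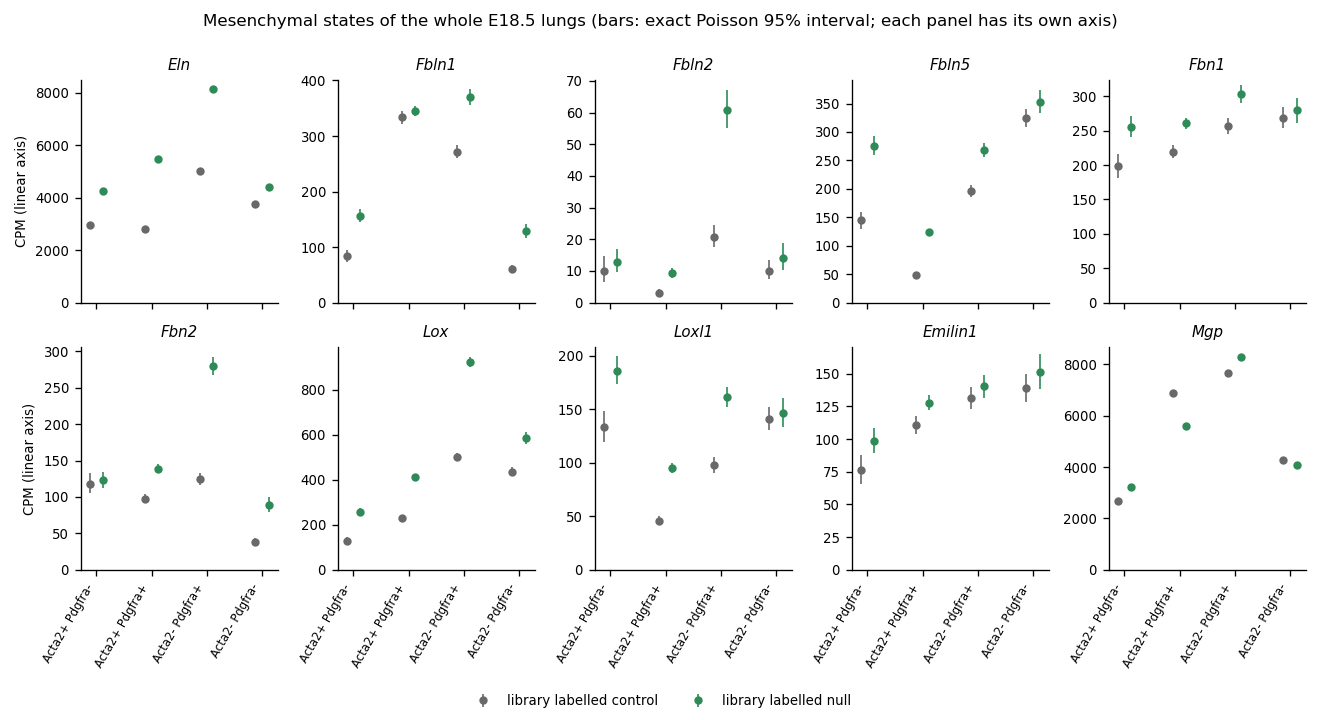
Level of each gene (CPM, linear axis, a scale of its own per panel) in 4 states of mesenchymal cells in the whole E18.5 lungs labelled control (grey) and null (green), with bars for the exact Poisson 95% interval. Eln and Lox peak in the Acta2- Pdgfra+ state in both libraries, and Fbln5 peaks in the Acta2- Pdgfra- state at 324 and 354 CPM.

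The time course was read next, in ECs and in mesenchymal cells of the sorted libraries. From E13.5 to E15.5 no member changed 2-fold in ECs, of 8 that reached 50 CPM, where 2.92% of all genes rose and 2.23% fell. Without the ECs that held at least 5 UMIs of Col1a1 and Col3a1 Fbln1 passed 2-fold, at a log2 ratio of -1.16. Arterial cells made up 190 of 210 ECs at E13.5 and 5658 of 9453 at E15.5. Within them Mgp went from 292 to 601 CPM and Fbn2 from 64.5 to 31.8 CPM, both past 2-fold, and Eln from 878 to 1729.7 CPM, just under it. With the ECs past both minimums counted as arterial at E15.5, Mgp and Fbn2 stood there at 461 and 33.4 CPM, within 2-fold of these E13.5 levels. In mesenchymal cells 6 of 10 members rose over this step and 0 fell (background 7.77% and 3.98%). The log2 ratio of E15.5 over E13.5 in mesenchymal cells was 4.07 (4.04 to 4.10) for Fbln5, 3.46 (3.44 to 3.47) for Eln and 3.05 for Fbln2. It was 1.77 for Mgp, 1.73 for Lox and 1.72 for Loxl1, while Fbln1, Fbn1, Fbn2 and Emilin1 moved by less than 2-fold. Within Acta2 cells without Pdgfra, Eln went from 973 to 8459 CPM, and within Pdgfra cells without Acta2 from 249.9 to 627 CPM, so that the rise was present in both states and larger in the first. Acta2 cells without Pdgfra made up 2134 of 11122 mesenchymal cells at E13.5 and 900 of 1798 at E15.5.

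From E15.5 to E18.5 Fbln1 fell in ECs, 1 of the 7 members that reached 50 CPM, and 0 rose (background 10.1% rose and 4.57% fell). Its log2 ratio was -1.57 (-1.66 to -1.47). The mesenchymal list moved with it, summing to 433, 203, 72.8 and 14.5 CPM in ECs from E13.5 to P8, where Fbln1 stood at 109, 55.2, 18.6 and 2.25 CPM. Without the ECs that held at least 5 UMIs of Col1a1 and Col3a1 the log2 ratio of Fbln1 was -1.74, from 49.0 CPM at E15.5, just under the minimum of 50. Fbn1 at E18.5 was higher than at E15.5 by slightly less than 2-fold over all ECs, at a log2 ratio of 0.99 (0.95 to 1.02). Its level in arterial cells alone went from 176 to 468 CPM over this step, a rise of more than 2-fold. Counting the ECs past both minimums as arterial gave a rise from 138 to 312 CPM, also more than 2-fold. In mesenchymal cells Fbln2 and Fbln5 fell, at log2 ratios of -2.33 (-2.51 to -2.16) and -1.01 (-1.07 to -0.94), and 0 of the 10 rose (background 7.79% rose and 2.34% fell). Of the 3 members that had risen most between E13.5 and E15.5, Fbln5 and Fbln2 thus came down again, while Eln did not, with a log2 ratio of 0.54 (0.52 to 0.57). The interval of Fbln5 spans 2-fold. Within Acta2 cells without Pdgfra its levels, given above, fell by less than 2-fold.

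From E18.5 to P8, 4 of the 6 members that reached 50 CPM fell in ECs and 0 rose (background 5.08% rose and 3.83% fell). The log2 ratio of P8 over E18.5 was -1.98 (-2.03 to -1.93) for Fbn1, -1.64 (-1.71 to -1.57) for Emilin1, -1.34 (-1.36 to -1.32) for Eln and -1.08 (-1.10 to -1.06) for Fbln5. Arterial cells made up 3815 of 9119 ECs at E18.5 and 1588 of 8259 at P8. The ECs past both the arterial and the capillary minimum, which were left out of both states, went from 2139 to 4775, so the smaller arterial number does not mean fewer Gja4-positive ECs. Within arterial cells Eln went from 2468 to 2062 CPM and Fbln5 from 1972 to 2078 CPM, both by less than 2-fold. With the ECs past both minimums counted as arterial, Eln instead went from 1535 to 496 CPM and Fbln5 from 1256 to 490.3 CPM, both falling by more than 2-fold. As the states were defined, Fbn1 went from 468 to 195 CPM and Emilin1 from 76.7 to 24.4 (21.3 to 27.8) CPM. Mgp moved the other way within arterial cells, from 609.7 to 1474 CPM, although its level over all ECs was near constant, at a log2 ratio of -0.04 (-0.071 to -0.0098). This direction turned when the ECs past both minimums were counted as arterial, with Mgp going from 379 to 299 CPM. In mesenchymal cells Fbln1, Fbln2, Fbln5, Fbn2 and Lox fell, 5 of 10, and 0 rose (background 8.77% rose and 5.64% fell). The 59 P8 cells held 9 UMIs of Fbln2 and 30 of Lox, and the log2 ratios were -2.69 (-3.83 to -1.74) and -2.44 (-3.02 to -1.91). Each step compares 1 library with 1 library, and the reporter sort decided which cells entered each.

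The last comparison concerned the whole E18.5 lungs labelled null and control. Cxcl12, the gene the allele disrupts, stood at 33.1 (25.8 to 41.8) CPM in arterial cells of the library labelled control and at 1890.4 CPM in those of the library labelled null. In all ECs it stood at 4.23 (3.38 to 5.24) and 496 CPM, and in arterial cells of the sorted E18.5 library, which carried 1 DsRed allele, at 2429 CPM. Cxcl12 was thus nearly missing from the library labelled control, against the labels, and the names of the deposited data also give the opposite genotypes. All directions below are those of the labels, and each is the reverse if the genotypes are read from Cxcl12 instead.

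No member differed 2-fold between the 2 libraries in ECs, mesenchymal cells, arterial cells or capillary cells among those that reached 50 CPM, which were 7, 9, 8 and 3 of the 10. Among all genes that reached the minimum, 0.148%, 0.688%, 0.315% and 0.21% were at least 2-fold higher and 0.355%, 0.375%, 0.257% and 0.33% lower in the library labelled null, so that few genes of any kind passed. The median log2 ratio of the members that reached 50 CPM was 0.46, 0.44, 0.15 and -0.053 in these classes, against -0.024 to 0.016 over all genes that reached it. Over all 10 members, with those under 50 CPM, it was 0.46, 0.50, 0.041 and 0.21. Eln was higher in the library labelled null in each class, with log2 ratios of 0.74 (0.71 to 0.77) in ECs, 0.67 (0.66 to 0.68) in mesenchymal cells, 0.33 (0.28 to 0.38) in arterial and 0.60 (0.55 to 0.66) in capillary cells. Arterial cells made up 224 of 1923 ECs in the library labelled control and 643 of 3019 in the library labelled null. The EC class was thus not the same mix in the whole lungs, and the part of this mix in the EC ratios was not tested. Capillary Eln, as described above, did not exceed the level in immune cells and is not read as expression by capillary cells. Lox stood at 356 CPM in mesenchymal cells of the library labelled control and 569 CPM in those labelled null, a log2 ratio of 0.68 (0.64 to 0.71), and Fbn2 at 91.6 and 165 CPM, a log2 ratio of 0.85 (0.79 to 0.91). Fbln2 was under 50 CPM in mesenchymal cells of both libraries, at 9.37 (8.34 to 10.5) and 24.3 CPM, a log2 ratio of 1.37 (1.19 to 1.56).

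Mgp, Fbln5 and Fbln2 lay close to each other in arterial cells of the 2 libraries, with log2 ratios of 0.0089 (-0.049 to 0.067), 0.062 (0.0023 to 0.12) and 0.02 (-0.087 to 0.13). With 1 library per label, the spread between lungs is unknown and a change under 2-fold cannot be told from it. Immune cells held 542 and 765 CPM of Eln in the libraries labelled control and null, the same direction as in ECs. SoupX, the authors' adjustment for free RNA, removed 39.7% of all UMIs from the library labelled control and 18.1% from the library labelled null, and Mgp was among the genes used to set it. Among members that reached 50 CPM in the adjusted values 3 ratios passed 2-fold, Eln in ECs at 1.10, Mgp in arterial cells at 1.27 and Lox in arterial cells at 3.45. The share of all genes past 2-fold was not computed for the adjusted values. These calls therefore have no background beside them and describe the members only. In immune cells the adjusted level of Eln was 108 and 298 CPM, so that part of the Eln in these cells was left by the adjustment in both libraries.

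**Figure D5:**
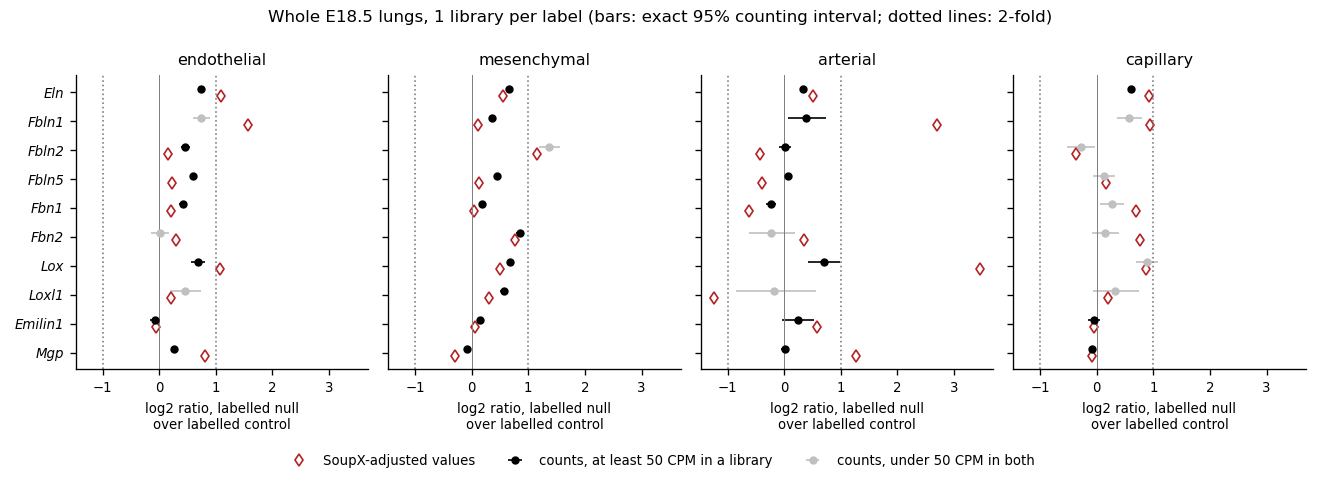
Log2 ratio of the library labelled null over the library labelled control for each gene in 4 classes of cells, with black points for genes of at least 50 CPM in one library, grey points for genes below it, bars for the exact 95% counting interval, red diamonds for the SoupX-adjusted values and dotted lines at 2-fold. All black points lie inside the dotted lines, and the diamonds of Lox and Fbln1 in arterial cells lie farthest from their points, at 3.45 and 2.70.

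A list of 39 further genes of the elastic fibre was set beside the members: 20 microfibril and assembly partners, 3 other lysyl oxidases, 10 enzymes that degrade elastin or inhibit such enzymes, and 6 genes of the TGF-beta side, which microfibrils store. The list was chosen with earlier results of these data known. A list gene could reach 50 CPM through the higher level alone, so all counts of the list below describe it and give no support for a difference. In mesenchymal over endothelial cells, 16 of 25 that reached 50 CPM were at least 2-fold higher and 3 lower at E15.5 (background 12.9% and 12.9%), and 19 of 26 higher and 2 lower at E18.5 (background 13.5% and 18%). At E18.5 the ratios were large for Mfap4 (6.84), a microfibril protein, Ltbp2 (6.79) and the proteoglycan Dcn (6.34), and Mmrn2, an endothelial relative of Emilin1, was the lowest at -6.66. At E13.5, 6 of 22 were higher and 4 lower (background 8.33% and 11.5%), among the latter Ltbp4, a binder of latent TGF-beta and of fibulins, at -1.59.

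In arterial over capillary cells, 10 of 16 were higher and 0 lower at E15.5, 7 of 15 and 2 at E18.5, and 8 of 17 and 1 at P8. These counts, too, describe the list only. The background was 7.49% higher and 4.25% lower at E15.5, 7.02% and 6.99% at E18.5, and 5.16% and 5.43% at P8. The whole lungs gave 6 of 18 higher and 1 lower in the library labelled control and 5 of 15 and 1 in the library labelled null, where the background was 6.63% and 5.92%, and 6.68% and 6.82%. Ltbp4 was higher in arterial cells in all 5 libraries, with log2 ratios from 2.87 in the library labelled null to 3.70 at P8, and so was Tgfb2, from 1.96 at P8 to 3.07 at E15.5. Of the lysyl oxidases beyond the members, Loxl2, Loxl3 and Loxl4, none reached 50 CPM in either state. Under the proximal and distal marks the 2 parted, with Ltbp4 at 2.17, 1.73 and 1.15 and Tgfb2 at -1.99, -1.52 and -3.21 from E15.5 to P8, so that Tgfb2 was higher in distal-marked cells. Ltbp4 was followed there after its arterial values had been seen. In proximal- over distal-marked cells 11 of 23 list genes were higher and 1 lower at E15.5, 9 of 19 and 2 at E18.5, and 5 of 18 and 1 at P8. The background was 7.56% and 3.91%, 7.39% and 6.9%, and 5.33% and 5.01% in that order, and the median log2 ratio of the list was 0.88, 0.79 and -0.029. Mfap5, a second microfibril protein, had log2 ratios of 4.26, 5.26 and 3.77 of proximal- over distal-marked cells, and Bgn, a proteoglycan that binds tropoelastin, of 3.96, 4.68 and 3.69.

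Between the whole lungs, 3 of 25 list genes were at least 2-fold higher in mesenchymal cells of the library labelled null, which were Mfap5 at a log2 ratio of 2.14, Dcn at 1.79 and Mfap2 at 1.01, and 0 were lower (background 0.688% and 0.375%). In ECs 0 of 16 were higher and 1 lower (background 0.148% and 0.355%), the elastase Ctss at -1.07, a gene of immune cells. The immune list (Ptprc, Lyz2, Cd68 and Tyrobp) summed to 1266 CPM in ECs of the library labelled control and 593 CPM in those labelled null, and its part in the Ctss value was not tested.

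The genes whose levels followed each member most closely were found by Pearson correlation of log2 CPM over 21 populations and 6150 genes. They were Fndc3b for Eln (0.944), Col3a1 for Fbln1 (0.928), Armcx6 for Fbln2 (0.945), Synpo for Fbln5 (0.910) and Nuak1 for Fbn1 (0.918). For the others they were Meg3 for Fbn2 (0.928), Bgn for Lox (0.905), Col16a1 for Loxl1 (0.983), Eif4ebp1 for Emilin1 (0.883) and Pdlim3 for Mgp (0.933). Among the members themselves Lox and Mgp were closest (0.934), followed by Eln and Mgp (0.913), and Fbln2 and Fbn2 were the least alike (-0.032). The populations share libraries and cells, and Col1a1 and Col3a1 define one of the classes, so these coefficients are descriptions of the order of levels and carry no test.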

How the data were processed

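The deposited tables hold UMI counts per gene and called cell of 3′ single-cell libraries, which the authors made with Cell Ranger 3.1 on mm10 (the headers give 3.0.2 or 3.1.0). A second table of each whole lung holds expected counts, no longer whole numbers, which the authors made with SoupX by removing an estimated share of free RNA, with Mgp, Dcn and Bgn among the genes that set the share. Levels and ratios from these adjusted values were an alternative only. The cell filter below was applied to them in the whole lungs, so they also decided which whole-lung cells were kept.

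Cells with at least 700 genes and 0.5% to 10% mitochondrial UMIs were kept, and no doublet caller was run. UMIs were summed per library and class with Python 3.11.15, numpy 2.4.6 and scipy 1.17.1. Levels carry exact Poisson, ratios exact conditional binomial and shares Clopper-Pearson 95% intervals, for counting error only. Per-cell values were taken after thinning to 2000 UMIs, and a class needed 50 cells. With 1 library per group no p-value was computed. Groups followed the labels, and the whole-lung tables are named for the opposite genotypes.

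The members and lists were chosen with earlier results of these data known. All members were named, list genes by the 3 largest ratios in each direction that reached 50 CPM, and neighbours by the highest correlation. The alternatives concerned the cell filter, the minimums of classes, states and marks, collagen-positive and double-positive ECs, thinning, averaging over cells, centring, a pseudocount of 5 CPM, a minimum of 10 CPM and SoupX. The annotation (GENCODE, GRCm38) holds antisense genes over Eln, Fbn1, Fbn2 and Lox, and whether counting used strand is not given in the sources used here.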

Additional observations from a re-analysis of the deposited data

Results flagged for a closer look

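Fbln2 and Fbln5 were above mesenchymal levels in ECs of some libraries and below them in others. The log2 ratio of mesenchymal over endothelial cells for Fbln2 was 1.02 in the sorted E15.5 library and -3.09 in the whole lung labelled control, 4.11 apart. For Fbln5 it was 1.47 at E15.5 and -2.33 at E13.5, 3.80 apart. Over time in mesenchymal cells, 3 members moved at least 2-fold up from E13.5 to E15.5 and at least 2-fold down from E18.5 to P8. These steps lay 5.74 apart on the log2 scale for Fbln2, 5.18 for Fbln5 and 4.17 for Lox. None of these differences was tested, since each side is 1 library.

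Acta2-positive cells without Pdgfra, in which Eln and Fbln5 were highest at E15.5, made up 2134 of 11122 mesenchymal cells at E13.5, 900 of 1798 at E15.5, 87 of 232 at E18.5 and 26 of 59 at P8, and the part of this mix in the steps was not tested.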

How the results depend on the processing

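No paired analysis was possible because each group is 1 library and the labels give no replicate numbers. Over 14 alternatives, 1612 of 2286 recomputed log2 ratios stayed inside the counting interval of the reported value, 673 moved outside it and 1 that had been called changed sign. Among the values that had not been called 62 changed sign, from reported values of at most 0.97 in size. The called one was Lox in arterial over capillary cells of the whole lung labelled control, at -1.42 with the SoupX-adjusted values, which also made it the 1 member called lower in that comparison, against 0. The summed calls were 41 members higher and 5 lower in mesenchymal over endothelial cells and 28 higher in arterial over capillary cells. Over time in mesenchymal cells they were 6 higher and 7 lower. These counts stayed within 1.5 times under each alternative run for them. The 19 higher calls in proximal- over distal-marked cells were rerun only with a mark minimum of 2 UMIs and without the gate markers in the totals. The former gave 14 against 14 over the 20 values it could compare, and the latter 19. Thinning and leaving out collagen-positive ECs were not run for the marks. Over time in ECs, 5 calls were lower and 0 higher. Thinning to 2000 UMIs, with the classes taken again on the thinned counts, gave 8 lower. A minimum of 10 CPM gave 10 lower, while 1 was higher without the ECs that held at least 5 UMIs of Col1a1 and Col3a1. That call was Fbn1 from E15.5 to E18.5, at 1.08 against 0.99. Between the libraries labelled null and control the 0 higher calls became 1 with a minimum of 10 CPM, which was Fbln2 in mesenchymal cells, and 3 with SoupX. No background share was computed for either setting. The 1 alternative chosen after seeing the data, leaving the markers of the gates out of the totals, moved 1 value. Leaving out a replicate was not possible. The E13.5 ECs and P8 mesenchymal cells limit precision: of 435 levels of at least 50 CPM, 361 had an interval within 10% of the value, and the widest reached 42.8%.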
